A study of Mus musculus with 6 samples.

Results

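The SH3-binding domain kinases Sbk1, Sbk2 and Sbk3 were described in a fast-twitch muscle of the lower leg, the tibialis anterior, of castrated and sham-operated mice. The 3 genes were taken by symbol from the annotation of the array, out of 22180 genes measured, and each had 1 probe set, which named no other gene. The family was chosen by the castrated against sham values of these same arrays, in which Sbk2 stood low, so the differences of its members are given as a description, without a test. All 6 samples came from male C57Bl/6 mice that had surgery at 11 weeks of age and were sampled at 18 weeks, 7 weeks later. The sham group (n = 3) is labelled fasted and the castrated group (n = 3) is labelled refed. The series design speaks of mice kept fasted and mice fed for 30 minutes, with no food in the last 4 hours for either, while the protocol attached to each sample has all mice fed. Surgery and feeding label cannot be told apart, so "castrated" below means castrated and labelled refed, and "sham" means sham-operated and labelled fasted.

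Castration removes the testes and with them most circulating androgen, a hormone that maintains muscle mass. The Sbk genes encode putative serine/threonine kinases, named after the first of them, Sbk1, which was first isolated from brain and carries a proline-rich stretch of the kind that SH3 domains, small protein-binding modules, recognise. Sbk2 and Sbk3 are neighbours in the genome and are known mainly from striated muscle, above all the atria of the heart. Few substrates of these kinases are established.

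Sbk2 and Sbk3 lie next to each other on chromosome 7 in the RefSeq gene table, with no other protein-coding gene between them. Sbk1 lies on the same chromosome between Xpo6 and Lat. The start regions of Sbk2 and Sbk3 are shown as a description, and a link between their motifs and the values in the 2 groups was not tested. Each window runs from 250 bases before to 50 bases after the annotated start (RefSeq, GRCm38.p6, minus strand, printed 5′ to 3′ along the gene), and capitals mark GC boxes (GGGCGG) and E-boxes (CANNTG), each searched on both strands.

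Sbk2, chr7:4964357-4964656: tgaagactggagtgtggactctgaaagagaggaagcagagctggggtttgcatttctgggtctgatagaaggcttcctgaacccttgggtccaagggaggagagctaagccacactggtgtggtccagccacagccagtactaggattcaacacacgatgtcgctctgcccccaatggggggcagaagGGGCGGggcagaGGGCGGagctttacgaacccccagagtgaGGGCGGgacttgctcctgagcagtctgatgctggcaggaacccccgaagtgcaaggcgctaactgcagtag

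Sbk3, chr7:4970912-4971211: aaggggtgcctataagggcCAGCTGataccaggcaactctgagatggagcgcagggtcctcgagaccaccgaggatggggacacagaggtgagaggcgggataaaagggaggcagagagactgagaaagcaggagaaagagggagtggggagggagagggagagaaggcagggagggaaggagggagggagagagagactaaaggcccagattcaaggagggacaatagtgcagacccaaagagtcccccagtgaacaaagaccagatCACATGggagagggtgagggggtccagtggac

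The Sbk2 window held 3 GC boxes, the motif of Sp-family factors, which was present in 35.7% of all 32851 windows of this length. It held no E-box, the motif of myogenic and clock factors, which 72.3% of windows had. The Sbk3 window held the opposite set, 2 E-boxes and no GC box. A CCAAT box (CCAAT) was present once in the Sbk2 window and not in that of Sbk3, against 37.4% of all windows. The androgen and glucocorticoid receptor half-site AGAACA, found in 19.0% of windows, was in neither. The TATA box TATAAA, the NBRE motif AAAGGTCA of Nr4a receptors and the MEF2 motif were not in these windows either (13.6%, 1.51% and 3.19% of all windows). These are matches of letters in 300 bases and not sites of binding.

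Sbk2 RNA in castrated muscle differed by −52.1% from its sham level on the linear scale. The log2 values of Sbk2 (Entrez 381836) were 8.83, 8.97 and 8.57 in sham samples 1 to 3 and 7.88, 7.57 and 7.73 in castrated samples 1 to 3. Every castrated sample lay below every sham sample, and the gap between the lowest sham and the highest castrated value, 0.69, was wider than the range within sham (0.40) or within castrated samples (0.31). The mean went from 8.79 ± 0.20 to 7.73 ± 0.15 (SD, n = 3 each). The log2 difference, castrated minus sham, was −1.06 (standard error 0.13 from limma's moderated variance), which is 2.09-fold lower. Only 7 of 22180 genes had a more negative difference. Sbk2 was the 1 member of 3 whose groups did not overlap, and castrated samples lay below all sham samples for 7.02% of all genes. In whole muscle, fewer cells that express a gene and less RNA per cell cannot be told apart.

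Sbk3, the gene beside Sbk2, did not share this pattern. Its log2 values (Entrez 381835) were 4.68, 4.95 and 4.44 in sham samples 1 to 3 and 4.88, 4.63 and 4.64 in castrated samples 1 to 3. The castrated values all fell inside the sham range, and the highest and the lowest value of the 6 were both from sham samples. The means were 4.69 ± 0.25 and 4.72 ± 0.14 (SD, n = 3 each), a log2 difference of 0.028 (standard error 0.14). These levels lay under the median of all probe sets, which was between 5.04 and 5.10 on the 6 arrays, and whether the probe set was above background was not tested. The values do not show that its RNA was the same in both groups.

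Sbk1 was the steadiest of the family. The log2 values of Sbk1 (Entrez 104175) were 5.95, 5.81 and 5.86 in sham samples 1 to 3 and 5.97, 5.89 and 5.94 in castrated samples 1 to 3. All 6 values lay within 0.16 of each other, and the groups overlapped. The means were 5.87 ± 0.072 and 5.93 ± 0.036 (SD, n = 3 each), a log2 difference of 0.062 (standard error 0.094). Its levels were above the medians of the arrays. For comparison, the median size of the difference over all genes, whatever its sign, was 0.099, which is more than that of Sbk1 or Sbk3 and a small part of that of Sbk2.

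**Figure D1:**
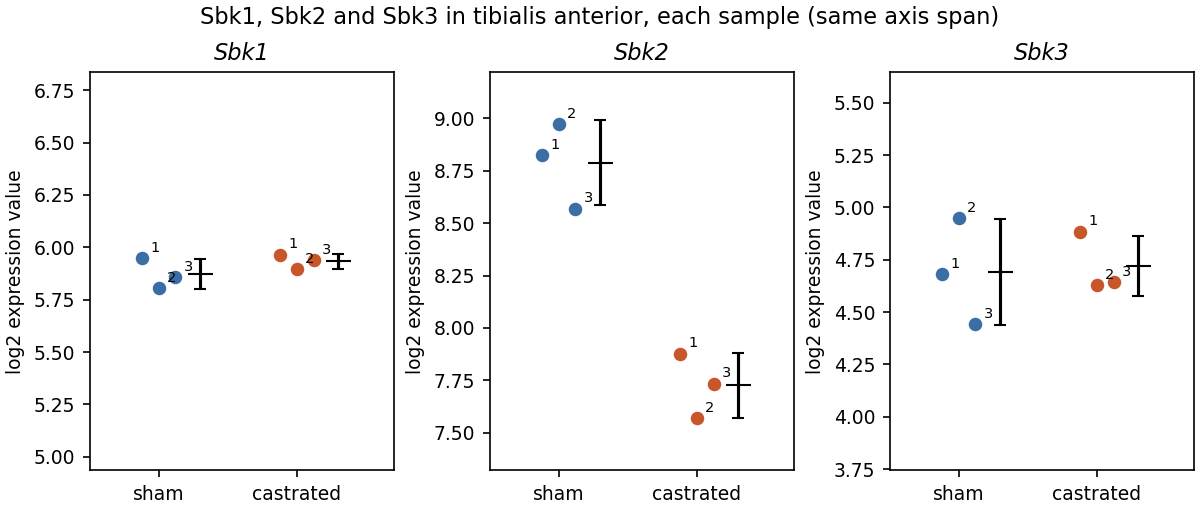
Log2 expression values of Sbk1, Sbk2 and Sbk3 (vertical axes, equal span) in 3 sham and 3 castrated samples (points, numbered by sample), with the mean and SD of each group beside them. The castrated Sbk2 values, 7.57 to 7.88, sit below the sham values, 8.57 to 8.97, whereas the groups overlap for Sbk1 and Sbk3.

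The measured genes around the family members had smaller differences than Sbk2. Of the 20 nearest protein-coding neighbours, 5 on each side of each member with the members themselves left out, 18 were measured, and 0 passed a limma adjusted p below 0.05, the threshold that 0.0135% of all genes passed in either direction. At an unadjusted p below 0.05, which 7.13% of all genes reached (3.51% lower and 3.62% higher), the count was also 0. Among so few genes, counts of 0 are close to these shares. Of all genes at an unadjusted p below 0.05, 49.3% were lower as deposited and 69.3% after each array was centred on its median. The differences of the measured neighbours ran from −0.25 to 0.21, with a median of 0.020 against −0.0056 over all genes. On the Sbk2 side, Ssc5d, a scavenger receptor family gene, differed by 0.093 (standard error 0.12), and on the Sbk3 side the zinc-finger gene Zfp579 by −0.23 (standard error 0.14). Fiz1, which encodes a zinc-finger protein, differed by −0.14 and the acetyltransferase-like Nat14 by −0.18. Zfp628 was the 1 measured neighbour whose groups did not overlap, and it was higher in castrated samples (log2 difference 0.21, standard error 0.10, limma adjusted p = 0.724), as 5.73% of all genes were. Next to Sbk1, Xpo6, a nuclear export receptor, differed by 0.064 and Lat, an adaptor of T-cell receptor signalling, by −0.064. Nfatc2ip, which binds an NFAT factor, had the most negative difference of the neighbours (−0.25, standard error 0.14, limma adjusted p = 0.762), with a range of −0.34 to −0.12 when a sample was left out (−0.34 without sham sample 2, −0.12 without sham sample 3).

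**Figure D2:**
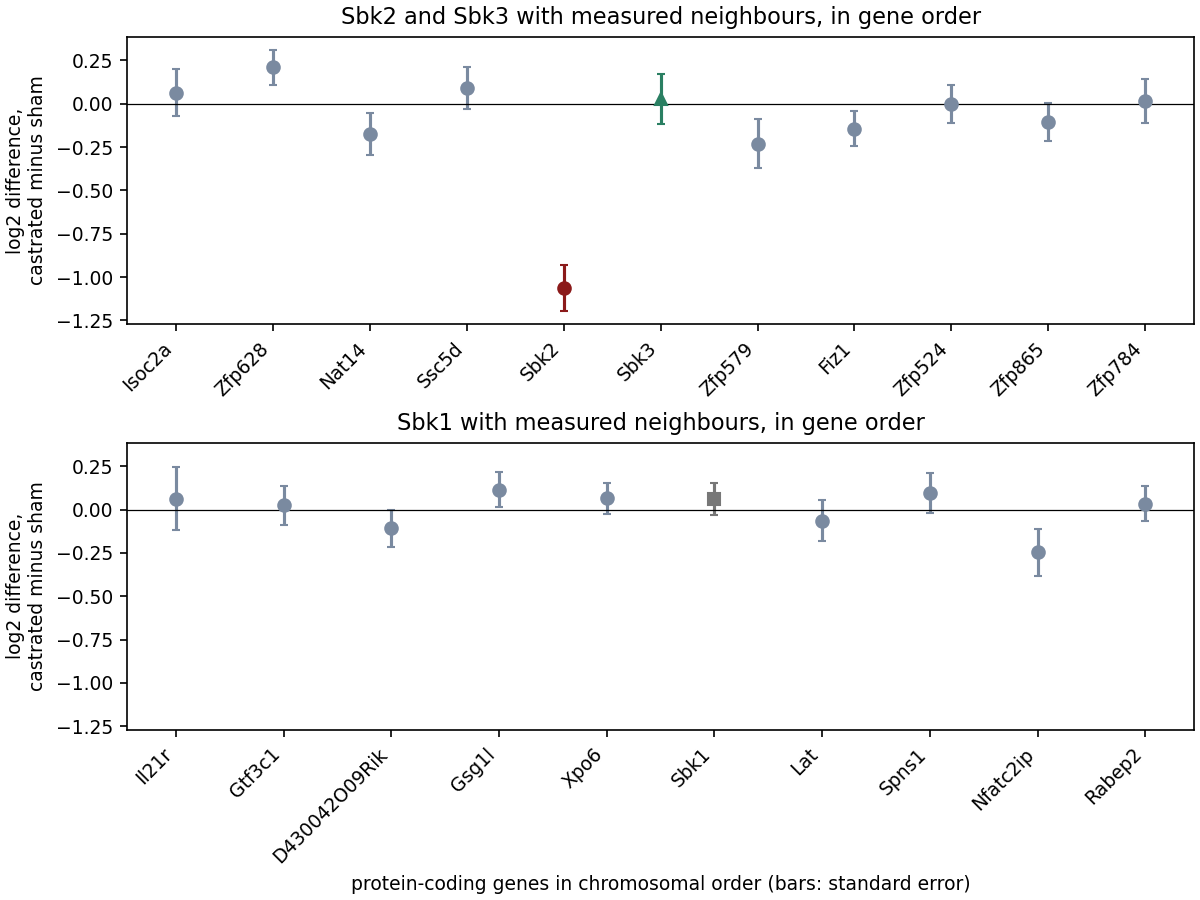
Log2 difference, castrated minus sham (vertical axis), of Sbk2 and Sbk3 (top) and Sbk1 (bottom) and their measured protein-coding neighbours in chromosomal order, with standard errors as bars. Sbk2 lies at −1.06, and every other gene shown lies between −0.25 and 0.21.

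Other kinases of striated muscle were spread on both sides of 0. Of 19 listed kinases 18 were measured, 9 with a positive and 9 with a negative difference (median −0.0100), and 0 passed the limma threshold. At an unadjusted p below 0.05 there were 1 higher and 1 lower, against 3.62% and 3.51% of all genes. The lower one was Musk, the receptor kinase of the neuromuscular junction. Its log2 values were 7.94, 7.71 and 8.12 in sham and 7.18, 6.83 and 7.33 in castrated samples. Its castrated values lay below all its sham values, as for 7.02% of all genes. The difference was −0.81 (standard error 0.16, limma adjusted p = 0.391). The higher one was Mylk4, a myosin light chain kinase family member, at 0.43 (standard error 0.19, limma adjusted p = 0.696). Its value was 0.60 without sham sample 2 and 0.29 without sham sample 3. The giant sarcomeric kinase titin, Ttn, differed by 0.014, Speg, a kinase of the membrane triad, by −0.029 and the muscle-specific Srpk3, a splicing-factor kinase, by −0.12.

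Genes that encode proteins with SH3 domains, the kind of module for which the family is named, differed by small amounts. Of 25 listed genes 24 were measured, 13 with a positive and 11 with a negative difference (median 0.0049), and 0 passed, with 0 also at an unadjusted p below 0.05. The sign of this median changed when arrays were centred on their medians (−0.033). The members with the smallest p were Fyn, a Src-family kinase (−0.19, standard error 0.097, limma adjusted p = 0.744), and Abi2, an actin regulator (−0.20, standard error 0.12, limma adjusted p = 0.766). No partner of Sbk2 in muscle was measured or tested, and the list does not claim one.

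Because Sbk2 and Sbk3 are known from the atria, genes of atrial and other heart muscle were also examined. All 18 were measured, 10 with a positive and 8 with a negative difference (median 0.023). The 1 that passed was Actc1, the cardiac alpha-actin, and it rose. Its log2 values were 9.10, 9.18 and 9.21 in sham and 10.67, 10.76 and 10.86 in castrated samples, a difference of 1.60 (standard error 0.098, limma adjusted p = 0.00136). Without variance moderation Actc1 did not pass (adjusted p = 0.312). The atrial genes did not pass. The means of Sln and Myl7, and of several other genes of the list, lay under the array medians in both groups. Whether such dim probe sets were above background was not tested. Nppa, which encodes the atrial natriuretic peptide, differed by −0.12 (standard error 0.14), the calcium pump regulator sarcolipin, Sln, by −0.11 (standard error 0.18), and the atrial light chain Myl7 by −0.15 (standard error 0.19). None of these has a settled direction. Nppa was at 0.0053 without sham sample 3. Sln was at 0.00082 without sham sample 3 and 0.015 without castrated sample 2, and at −0.29 without castrated sample 1. Myl7 was at 0.092 without castrated sample 2 and −0.29 without castrated sample 1. The cardiac troponin Tnni3 differed by 0.13 (standard error 0.11, limma adjusted p = 0.840).

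Muscle transcription factors had 8 negative and 3 positive differences among 11 measured of 13 listed (median −0.036), and 0 passed the limma threshold. At an unadjusted p below 0.05 there were 3, all lower, against 3.51% of all genes lower at that level. The list was not tested as a set. These were Tead4, a factor of the Hippo pathway (−0.27, standard error 0.11, limma adjusted p = 0.687), the myogenic factor Myod1 (−0.29, standard error 0.12, limma adjusted p = 0.691) and the serum response factor Srf (−0.24, standard error 0.11, limma adjusted p = 0.698). The groups did not overlap for Tead4 and Srf, where castrated samples lay below all sham samples as for 7.02% of all genes. They overlapped for Myod1.

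**Figure D3:**
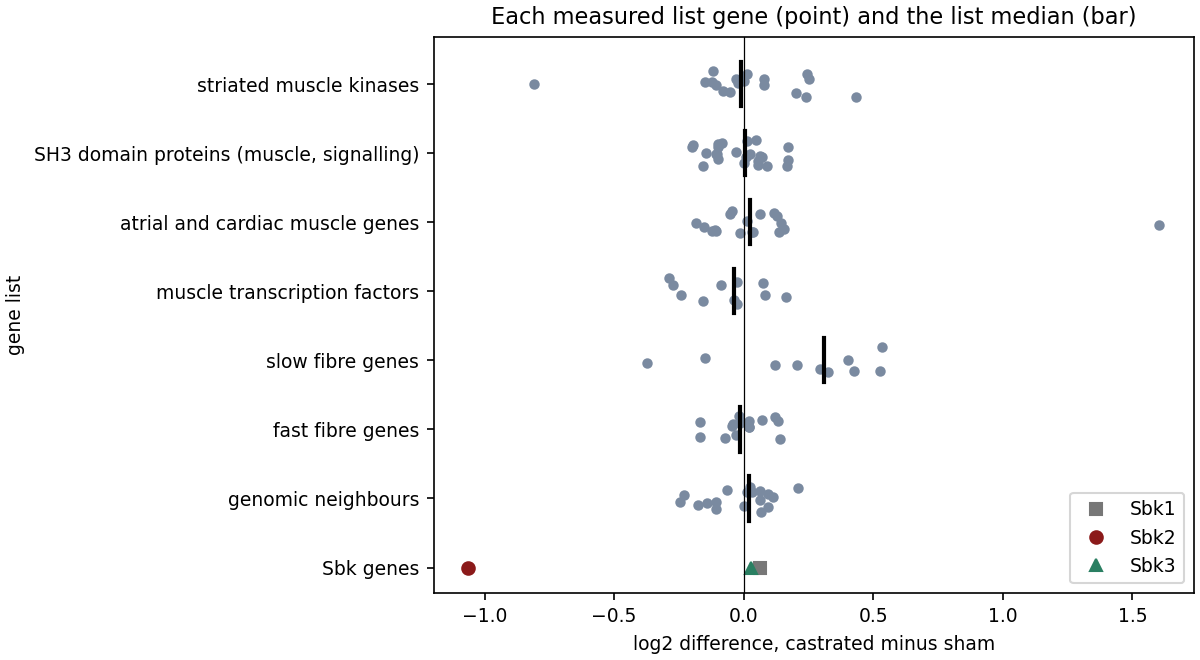
Log2 difference, castrated minus sham (horizontal axis), of each measured gene of 7 lists (points) with the list median (bar), and of the 3 Sbk genes in the bottom row. The point at 1.60 is Actc1 and the one at −0.81 is Musk, and Sbk2 at −1.06 is lower than every list gene.

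The tissue label was checked against fibre markers. All 7 skeletal muscle fibre markers were at log2 values of 11.96 to 13.64 in every sample, and 0 passed the limma threshold or an unadjusted p below 0.05. The 15 fast fibre genes had a median difference of −0.014, with 0 past the threshold and 0 at an unadjusted p below 0.05. The fast myosin Myh1 differed by −0.17 and the fast troponin Tnni2 by −0.17 (limma adjusted p = 0.766 and 0.787), and Tnni2 was at −0.078 without sham sample 1. The 10 slow fibre genes had a median difference of 0.31, with 0 past the limma threshold. The calcium-binding Casq2 (0.40, limma adjusted p = 0.696) was higher at an unadjusted p below 0.05, as 3.62% of all genes were. It was the 1 slow fibre gene at that level. Casq2 was at 0.27 without sham sample 1 and 0.61 without sham sample 3. The next by p was the slow troponin Tnnt1 (0.43, limma adjusted p = 0.784), which ran from 0.10 with castrated sample 1 left out to 0.65 with castrated sample 2 left out, and was at 0.28 when sham sample 2 was dropped. After subtraction of each gene's own mean, the slow median was 0.74 in castrated sample 1 and −0.23 and −0.21 in castrated samples 2 and 3. Without castrated sample 1 the slow median was −0.078 and the Sbk2 difference −1.14. The part of fibre type in the Sbk2 difference was not tested.

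Markers of other cells in the muscle were summed on the linear scale, where the brightest marker weighs most, and these sums overlapped between the groups. The 4 adipocyte markers summed to between 136 and 164 in sham and between 162 and 171 in castrated samples, and the 4 tendon markers to between 493 and 813 and between 700 and 971. The 4 macrophage markers summed to 434 to 913 in sham samples and to 394 to 706 in castrated ones, and the 4 measured of 6 nerve and Schwann cell markers to 152 to 177 and 154 to 176. Sums also overlapped for endothelium (2745 to 3277 and 3047 to 3163, 5 markers), for fibro-adipogenic progenitors (3221 to 4261 and 3321 to 3943, 3 of 4 measured), for smooth muscle (1261 to 1455 and 1243 to 1580, 4 markers) and for satellite cells (171 to 180 and 162 to 199, 3 markers). Of the 31 measured markers of these cells 0 passed the limma threshold, and 3 reached an unadjusted p below 0.05, against 7.13% of all genes. These were Emcn of endothelium and Fmod and Comp of tendon. Taken gene by gene, the median log2 difference was 0.48 for tendon and 0.22 for adipocyte markers (3 of 4 higher in each). For endothelium it was 0.045, with 5 of 5 higher. It was −0.081 for macrophage and −0.051 for smooth muscle markers (3 of 4 lower in each). The remaining types lay between −0.015 and 0.026. The part of these cells in the Sbk2 difference was not tested.

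The genes whose pattern over the 6 arrays was most like that of Sbk2 were Slc2a3, Odc1 and Rrad. Candidates were 10343 genes at or above the median level, with the members, unnamed gene models, small RNA genes and some receptor gene families left out. Likeness was the root-mean-square difference between log2 values, each gene centred on its own mean. It was 0.15 for Slc2a3, the glucose transporter GLUT3, 0.18 for Odc1, the enzyme that makes the polyamine putrescine, and 0.24 for Rrad, a small GTPase of muscle. The centred Sbk2 values themselves had a root mean square of 0.55. Slc2a3 stood at 6.39, 6.47 and 5.86 in sham and 5.29, 5.05 and 5.50 in castrated samples. Odc1 lay between 9.96 and 10.15 in sham and between 9.14 and 9.39 in castrated samples. Rrad stood at 6.81, 7.36 and 7.17 in sham and 6.62, 6.00 and 6.03 in castrated samples. In all of them the groups did not overlap, which follows from the way they were selected, since most of the Sbk2 pattern is the gap between the groups. The differences were −0.96 (standard error 0.18), −0.80 (standard error 0.11) and −0.89 (standard error 0.20).

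**Figure D4:**
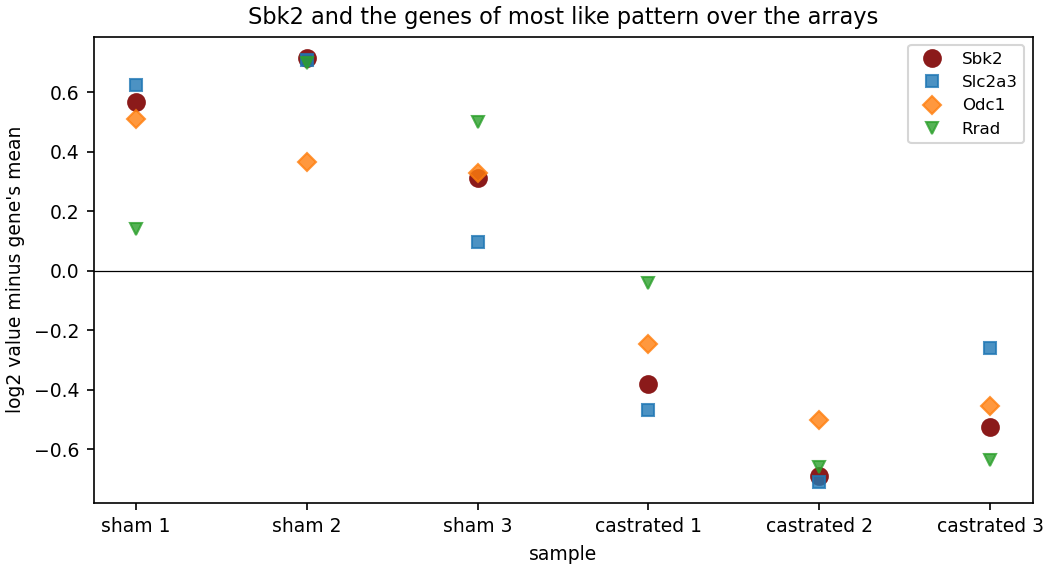
Log2 values of Sbk2, Slc2a3, Odc1 and Rrad, each minus the gene's own mean over the arrays (vertical axis), in each of the 6 samples (horizontal axis). All castrated values are below 0 and all sham values above it, and Sbk2 has its highest value in sham sample 2 and its lowest in castrated sample 2.

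For Sbk1 and Sbk3 likeness picked genes with little movement. Those nearest to Sbk1 were ND1 and COX1, listed under the names of subunits encoded in the mitochondrial genome, and Ocstamp, at 0.016, 0.017 and 0.018. Nearest to Sbk3 were Prrt4, Tppp2 and the protease gene Pappa, at 0.046, 0.052 and 0.052. The root mean squares of the centred values were 0.056 for Sbk1 and 0.17 for Sbk3.

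The Sbk2 difference stayed negative when the values were scaled or the samples chosen otherwise, and the sign for Sbk3 changed. Where groups do not overlap, leaving out 1 sample cannot change the sign. For Sbk2 that setting therefore shows only how far the size moved and is no check of direction. Leaving out each sample in turn, the Sbk2 difference ran from −1.17 without sham sample 3 to −0.97 without sham sample 2. Quantile, median and cyclic loess normalization gave −1.10 to −1.02. Sbk3 went from −0.097 without sham sample 3 to 0.16 without sham sample 2, and it was between −0.014 and −0.0095 under those normalizations, so it has no settled sign. Sbk1 was positive throughout, at 0.024 to 0.10, and at 0.030 without sham sample 2 and 0.10 without sham sample 1.

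**Figure D5:**
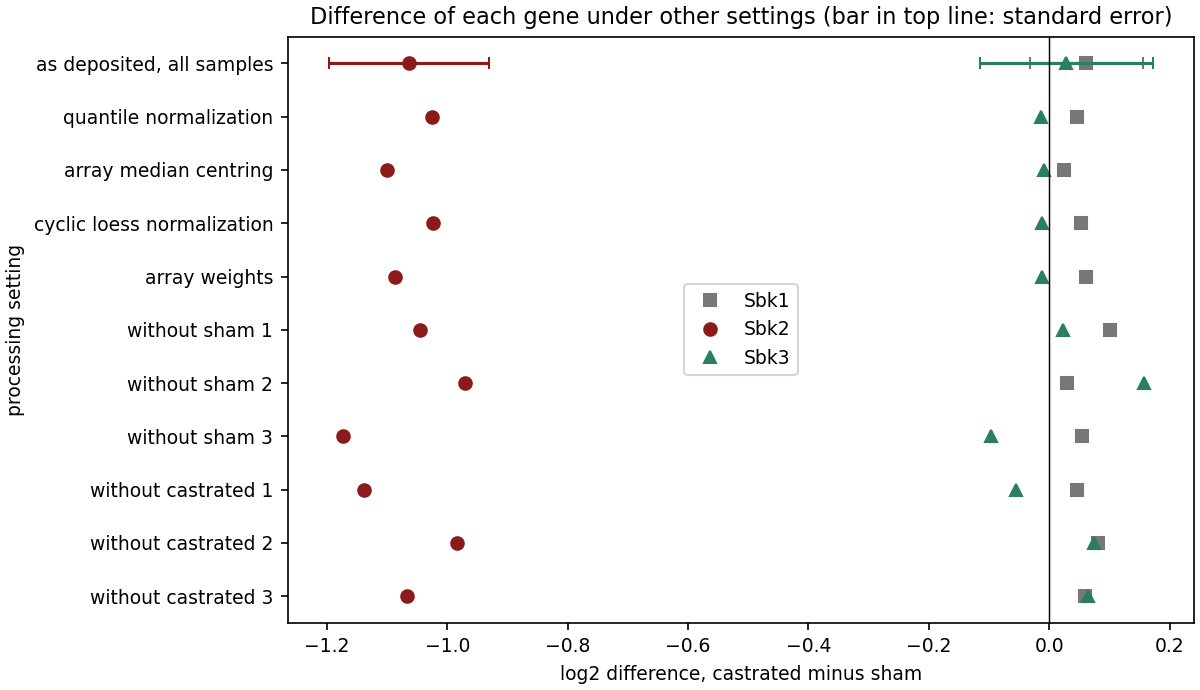
Log2 difference, castrated minus sham (horizontal axis), of the 3 Sbk genes as deposited (top line, bars are standard errors), under other normalizations or array weights, and with each sample left out. Sbk2 stays between −1.17 and −0.97, while Sbk3 lies on both sides of 0.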

How the data were processed

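RNA of the tibialis anterior was hybridised to Affymetrix whole-transcript arrays, 1 per sample, from 300 ng of total RNA per the labels' protocols. The authors deposited 1 log2 value per probe set and array, already normalized. The submitters' processing notes name Partek. How background was corrected and probes were summarized and normalized, and the genome build, is not given in the sources used. The number of arrays limits the precision.

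The table holds 41345 probe sets, of which 23521 carry 1 gene symbol, 1814 several and 16010 none. Symbols were updated by Entrez identifier, with 23328 matched. The probe set with the highest mean represented each gene, without a filter on dim genes. Samples were grouped by title, and no batch information was used. The test was limma 3.58.1 (R 4.3.3, lmFit and eBayes) with no covariate, and p-values of the 22180 genes were adjusted together by Benjamini-Hochberg, with 0.05 as the threshold. The labels name a mouse for each sample but no more, so a p-value measures only how these samples vary. The procedure was also run on simulated data with independent normal noise for each gene. These data held no effect shared by samples, so the run does not cover one, and its outcome is not reported here.

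The members and lists were chosen with earlier results of these data known. Named genes were the members, the 3 genes most like each, the 2 genes of smallest p of each list, any that passed, genomic neighbours and a few fixed genes, of which 1 was not analysed here. Ttn, Speg, Srpk3, Srf, Emcn, Fmod and Comp were added after their values were seen. A list of kinases nearest in protein sequence was not made. Promoter windows came from RefSeq, in which 2 members matched; Sbk1 was not among them. Same-numbered samples deviated together weakly (correlations of 0.076, 0.033 and 0.047 across genes). Each of these was above every correlation between different-numbered samples (−0.045 to 0.0018). The numbers were not taken as pairs in the main fit, and a fit with the number as a block is among the alternatives below. Figures were drawn with matplotlib 3.10.9.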

Additional observations from a re-analysis of the deposited data

How the results depend on the processing

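The alternatives were other normalizations, filters on dim genes, other probe set rules, variance priors, array weights, the replicate number as a block and each sample left out. The differences of the 3 members moved by less than 1 SD between replicates under all 13 settings applied to them. Some of these could not move them and are no check. Each member has 1 probe set, so the other probe set rules changed nothing. With every number present in both groups, the replicate block leaves a difference of means as it is. The count of genes past the limma threshold, 3 as analysed, was 9 and 16 with filters on mean level at the 25th and 50th percentile, 10 with a trended robust prior, 1 with every probe set on its own and 0 without variance moderation (smallest adjusted p 0.312), under which the atrial and cardiac count was also 0. It was 3 to 4 with a sample left out and 2 with the replicate number as a block, which left the Sbk2 difference at −1.06 and changed no list count. The atrial and cardiac median was 0.12 with the filter at the 50th percentile. The median of the SH3 list was −0.033 after centring arrays on their medians and ran from −0.053 to 0.011 with a sample left out, and that of the neighbours from −0.020 to 0.047. Of 26 named genes outside the family, Actc1 did not pass without moderation. Odc1 passed with both filters and the trended prior, but not as analysed or under its other alternatives. Because Odc1 was picked from these same arrays for its likeness to Sbk2, its passing is no test of its difference. Centring shifted the median difference of all genes from −0.0056 to −0.043.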
